A study of Mus musculus with 46 samples.

Results

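Among the 19007 H3K4me3 peaks listed for replicate 1 of visceral adipose tissue from vehicle-treated mice at 5 weeks, 2225 (11.7%) carried both H3K4me3 and H3K27me3. These sites were chosen by peak overlap: each is a peak of that list which shares at least 1 bp with an H3K4me3 peak of vehicle replicate 2 and with an H3K27me3 peak of either vehicle library at 5 weeks. They make up 13.4% of the 16648 H3K4me3 peaks that the 2 vehicle libraries shared. Of the 2225 sites, 608 also overlapped an H3K27ac peak of either vehicle library at 5 weeks and 1617 (72.7%) did not. The presence of peaks in the vehicle libraries at 5 weeks chose the sites and their division by H3K27ac, so these counts describe the selection and are not tested.

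The series follows mice treated with corticosterone (CORT), the adrenal glucocorticoid of the mouse, to model Cushing's syndrome, the disease of glucocorticoid excess. The groups were CORT at 5 weeks, labelled as active disease, its vehicle group (VEH) at 5 weeks, CORT at 15 weeks, labelled as recovered, and the VEH group at 15 weeks. Each group had 2 ChIP-seq libraries for each of 3 histone marks and 5 RNA-seq libraries, which with 2 inputs (sheared chromatin without immunoprecipitation) gave 46 samples. Strain, sex, age and dose are not given in the sources used here, and nothing in the labels says whether replicates came from separate animals, so p-values measure the spread between samples, which may be technical. The tissue was analysed whole: both marks at a site may come from different cells or alleles, and fewer cells of a type cannot be told apart from less RNA or less mark per cell.

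H3K4me3, trimethylation of lysine 4 of histone H3, is laid down by the COMPASS and trithorax complexes and marks promoters. H3K27me3 is laid down by Polycomb repressive complex PRC2 and is bound by the CBX subunits of PRC1, and it is known for keeping developmental genes such as the Hox genes off. Chromatin with both marks is called bivalent and is best known from promoters of developmental regulators in stem cells, where it is described as poised. H3K27ac sits on the same lysine as H3K27me3, so a single histone tail cannot hold both, and it marks active promoters and enhancers. The deposited tables name no genes beside the sites, so sites are given by their position in the mouse build mm9 and no gene is assigned to them.

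The sites with H3K27ac were broad and strong H3K4me3 peaks, and those without it were narrow and weak. Sites with H3K27ac had a median width of 2175 bp (quartiles 1694 and 2889 bp) and a median score of the authors' peak caller of 899. Sites without H3K27ac had a median width of 1373 bp (quartiles 1119 and 1735 bp) and a median score of 247. The other shared H3K4me3 peaks showed the same order, with a median of 2024 bp and a score of 1390 for the 12764 with H3K27ac, against 1167 bp and 176 for the 1659 without it. The lowest score in the lists is 50, and these scores are the authors' own.

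The share of sites with both marks depended on the strength of the H3K4me3 peak. When the shared H3K4me3 peaks were divided by score into 5 bins of equal number, the share that also held H3K27me3 was, from the weakest to the strongest bin, 21.3%, 27%, 12.3%, 4.24% and 1.98%. Within those bins the proportion of the sites that lacked H3K27ac was 92.8%, 79.8%, 52.9%, 16.3% and 1.52%. Divided by width, the share ran from 21.5% in the narrowest of 5 bins to 7.66% in the widest.

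H3K27me3 covered the sites without H3K27ac almost fully and those with it only in part. The 2 VEH lists at 5 weeks merge into 9663 H3K27me3 domains with a median length of 1024 bp. The 2364 domains (24.5%) that held a site with both marks had a median length of 1566 bp, against 924 bp for the remaining domains. A median of 53.6% of the bases lay under H3K27me3 at sites with H3K27ac, and 95.2% at sites without it. H3K27me3 covered the whole H3K4me3 peak at 49 sites with H3K27ac (8.06%) and at 696 sites without it (43.0%). At 272 sites with H3K27ac (44.7%) and 177 without it (10.9%) it covered less than 50% of the peak. H3K27ac covered a median of 85.1% of the sites that had it, and at 573 of the 608 (94.2%) the H3K27ac and H3K27me3 peaks shared bases. Coverage comes from the lists that chose the sites and is given as a description.

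Sites near the limit of the overlap rule were few. The smallest overlaps among the sites were 7 bp at chr5:34037628-34038979, 14 bp at chr6:87540062-87541424 and 15 bp at chr2:152776986-152777942, and 15 sites shared under 100 bp with H3K27me3. The nearest H3K4me3 peaks left out lay 0 bp (chr3:108340115-108340954, directly adjacent), 10 bp (chr3:25445874-25453782) and 11 bp (chr6:122441125-122442399) from an H3K27me3 peak, and 130 shared peaks without overlap lay within 1 kb of one.

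The sites were spread over all autosomes and were scarce on the X chromosome. On the 19 autosomes the share of shared H3K4me3 peaks that held both marks lay between 10% on chromosome 16 and 16.8% on chromosome 12. On the X chromosome it was 6 of 451 peaks (1.33%), and on the Y chromosome 0 of 5. The X chromosome held 0.290% of the H3K27me3 domains and 2.71% of the shared H3K4me3 peaks.

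Most sites stood alone, and a small number formed long clusters. With gaps of up to 25 kb allowed between neighbours, 1716 sites (77.1%) had no neighbour, 509 (22.9%) fell into 223 clusters of at least 2, and 8 clusters held 4 or more. The largest cluster, chr2:74493549-74601829, spanned 108 kb and held 10 sites, 7 of them without H3K27ac, among 13 shared H3K4me3 peaks and 19 H3K27me3 domains that covered 43.8% of its length. The cluster at chr15:102806819-102843198 held 6 sites in 36.4 kb, all with H3K27ac. The cluster at chr3:87764182-87828151 held 6 sites in 64.0 kb, 4 of them without H3K27ac.

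**Figure D1:**
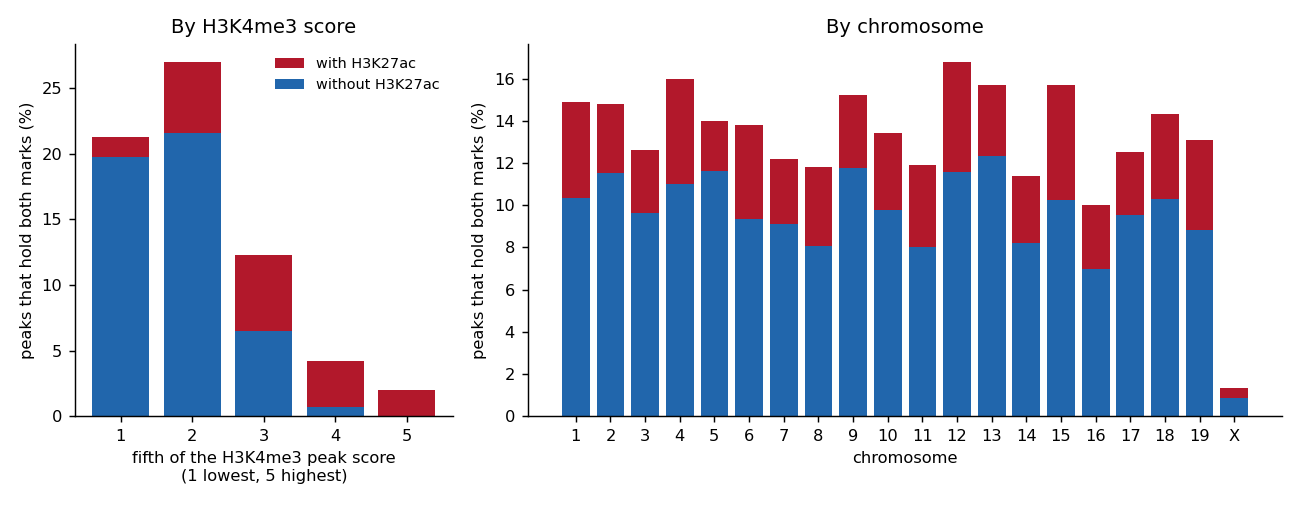
Share of shared H3K4me3 peaks that also held H3K27me3 in the VEH libraries at 5 weeks, in 5 bins of peak score and by chromosome, with the part that had H3K27ac stacked on the part that lacked it. The share was 1.98% in the strongest bin, against 21.3% in the weakest, and 1.33% on the X chromosome, against 10% to 16.8% on the autosomes.

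H3K4me3 was found again at nearly all sites in the 6 libraries that the rule did not use. Peaks were present at 99.6% and 93.9% of the sites in the 2 CORT libraries at 5 weeks, at 99.8% and 100% (2224 of 2225) in the CORT libraries at 15 weeks, and at 90.3% and 99.9% in the VEH libraries at 15 weeks. All 6 libraries had an H3K4me3 peak at 1940 sites (87.2%). Across these libraries, the other shared H3K4me3 peaks were met again in 96.7% to 99.8% of cases with H3K27ac and 87.7% to 99.6% without it. This return of H3K4me3 was thus not particular to the sites.

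H3K27me3 was found again less evenly, and the libraries of a group differed more than the groups. CORT at 5 weeks had an H3K27me3 peak at 92.9% and 60.3% of the sites. CORT at 15 weeks had one at 47.8% and 87.1%, and VEH at 15 weeks at 25.2% and 77.6%. The number of peaks in each list moved with these shares: the lists held 11090 and 4430 peaks for CORT at 5 weeks, 4599 and 9105 for CORT at 15 weeks, and 2255 and 8284 for VEH at 15 weeks. The part of list size in these shares was not tested, and with 2 libraries a group the smallest two-sided p of an exact permutation test is 1 in 3, so no test was made. The 2 VEH libraries at 5 weeks that chose the sites covered 92.0% and 74.2% of them with 8631 and 5914 peaks.

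Sites without H3K27ac had H3K27me3 peaks more often than sites with it in each of the 6 libraries. The shares were 94.5% and 67.0% for sites without H3K27ac, against 88.5% and 42.4% for sites with it, in CORT at 5 weeks. In CORT at 15 weeks they were 56.0% and 90.5% without H3K27ac, against 26.0% and 78.3% with it. In VEH at 15 weeks they were 29.2% and 83.1% without H3K27ac, against 14.6% and 62.8% with it. The other shared H3K4me3 peaks reached at most 19.1% where they lacked H3K27ac and 3.97% where they had it, in any of these libraries.

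H3K27me3 was present in all 6 libraries at 452 sites (20.3%) and in none at 76 (3.42%). Of the 452, 391 lacked H3K27ac and 61 had it. Sites found in more libraries lay in longer domains: the median domain was 846 bp long where at most 1 of the 6 libraries had a peak, 1122 bp for 2 or 3 libraries, 1915 bp for 4 or 5, and 3204 bp for all 6. The median width of the H3K4me3 peak differed little over the same classes, with 1511, 1567, 1481 and 1544 bp.

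**Figure D2:**
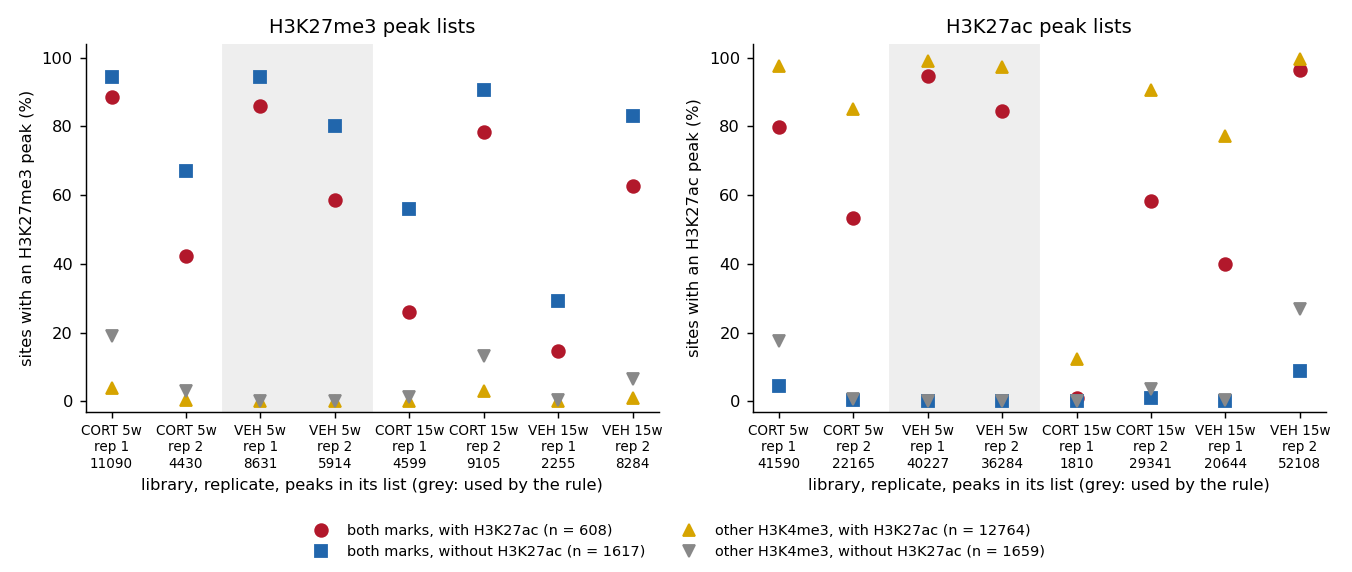
Percent of sites overlapped by an H3K27me3 peak (left) and an H3K27ac peak (right) in each library, for the 608 sites with both marks and H3K27ac, the 1617 with both marks and no H3K27ac, and the other shared H3K4me3 peaks with and without H3K27ac; the number of peaks in each list stands under the library, and grey marks the libraries used by the rule. Outside the rule, H3K27me3 was listed at 29.2% to 94.5% of sites without H3K27ac and at most at 19.1% of the other H3K4me3 peaks.

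Applying the same rule to each group gave 3001 sites in CORT at 5 weeks, 2225 in VEH at 5 weeks, 3266 in CORT at 15 weeks and 1902 in VEH at 15 weeks. Of the 2225 sites, 88.3% were met again by the rule in CORT at 5 weeks, 88.2% in CORT at 15 weeks and 69.8% in VEH at 15 weeks. The sites that the CORT libraries gave lay on the 2225 sites in 64.4% of cases at 5 weeks and 59.2% at 15 weeks, and those of VEH at 15 weeks in 82.3%. At 144 sites (6.47%) neither CORT library at 5 weeks had an H3K27me3 peak, at 269 (12.1%) neither CORT library at 15 weeks, and at 488 (21.9%) neither VEH library at 15 weeks.

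The levels of both marks were followed in the authors' deposited tables of differential peaks, which give the log2 of the mean normalized reads of each group over merged regions, the log2 difference and the false discovery rate (FDR). A region was called at an FDR below 0.05. All 2225 sites were looked up: 2217 lay on a region of the H3K4me3 table at 5 weeks and 2220 at 15 weeks, and 2106 and 1806 lay on a region of the H3K27me3 tables. At 15 weeks the H3K27me3 table held 396 of the 608 sites with H3K27ac and 1410 of the 1617 without it. The 2 times were normalized separately, so levels are compared only within a time. Each table was shifted upward as a whole in CORT, with a median difference over all regions between 0.48 and 0.85 on the log2 scale, and the values at the sites are set beside that shift.

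At 5 weeks the H3K4me3 difference at the sites lay below that of the table as a whole. The authors' deposited table for H3K4me3 at 5 weeks had a median CORT minus VEH difference of 0.48 over the 2179 regions on the sites, against 0.61 over all 23236 regions and 0.61 over the regions on other shared H3K4me3 peaks. Of these regions, 738 (33.9%) in the authors' deposited table were called higher in CORT, where 51.9% of all regions were. The medians of the authors' deposited table were 0.55 for sites with H3K27ac and 0.44 for sites without it. For H3K27me3 at 5 weeks the authors' deposited table had a median of 0.59 over 2128 regions on the sites, against 0.56 over all 7792, and 735 (34.5%) were called higher, where 16.7% of all regions were. Both contrasts contain the VEH libraries that chose the sites, so these values are a description and nothing is read from the calls.

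At 15 weeks, in libraries the rule did not use, H3K4me3 was higher in CORT at most sites and lower at none. Of the H3K4me3 regions at 15 weeks in the authors' deposited table, 1525 of the 2179 regions on the sites (70.0%) were called higher in CORT, where 47.1% of all 31037 regions were. No region on a site was called lower in the authors' deposited table. None had an unadjusted p below 0.05 in that direction, and none had a difference below 0. Of all 31037 regions in the authors' deposited table, none was called lower either. Among them, 1 had an unadjusted p below 0.05 in that direction and 5.10% had a difference below 0. The lack of lower calls was thus not particular to the sites. The median difference in the authors' deposited table was 0.90 over the regions on the sites, against 0.85 over all regions and 1.10 over those on other shared H3K4me3 peaks. The median levels in the authors' deposited table were 9.18 in CORT and 8.17 in VEH for sites with H3K27ac, with 521 of 598 regions (87.1%) called higher. For sites without H3K27ac they were 7.61 in CORT and 6.74 in VEH, with 1004 of 1581 regions (63.5%) called higher in the authors' deposited table. Relative to the upward shift of the table, 58.6% of the regions on the sites lay above its median.

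The share of calls followed the level of H3K4me3. Regions on the sites at a log2 level of 5 to 6 in the authors' deposited table at 15 weeks were called higher in 6.84% of cases, against 11.8% of regions on other shared H3K4me3 peaks of that level. At a level of 7 to 8 the shares in the authors' deposited table were 81.4% on the sites and 83.7% on the others, and at 8 to 9 they were 97.2% and 97.2%. The median differences in the authors' deposited table at a level of 8 to 9 were 0.98 on the sites and 1.09 on the others. In these level classes the gap between the sites and the other H3K4me3 peaks at 15 weeks was smaller than over the whole lists (70.0% and 87.0%).

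H3K27me3 at 15 weeks was higher in CORT at fewer sites, and by about the shift of the whole table. For H3K27me3 at 15 weeks, 519 of the 1817 regions on the sites in the authors' deposited table (28.6%) were called higher in CORT, where 15.9% of all 5992 regions were. The median difference in the authors' deposited table was 0.67 over these regions and 0.65 over all regions. Of the regions on the sites, none was called lower in the authors' deposited table or had an unadjusted p below 0.05 in that direction. A difference below 0 was found at 17 of them (0.936%). Of all 5992 regions in the authors' deposited table, none was called lower either. Among all regions, 1 had an unadjusted p below 0.05 in that direction and 3.79% had a difference below 0. The median levels in the authors' deposited table were 5.96 in CORT and 5.24 in VEH for sites with H3K27ac, and 6.44 in CORT and 5.78 in VEH for sites without it. The calls reached 89 of 424 regions (21.0%) with H3K27ac and 430 of 1393 (30.9%) without it in the authors' deposited table. Regions of the same table away from all shared H3K4me3 peaks were called in 10.5% of cases, and this gap narrowed with the level of the mark. At a level of 5 to 6 the authors' deposited table called 11.7% on the sites and 5.15% away from the shared peaks. At 6 to 7 it called 30.9% and 22.3%, and at 7 to 8 it called 65.6% and 64.8%. The 275 regions on other shared H3K4me3 peaks had a median difference of 0.83 in the authors' deposited table, above that on the sites. Of these, 9.45% were called, and 19.8% of those at a level of 5 to 6.

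**Figure D3:**
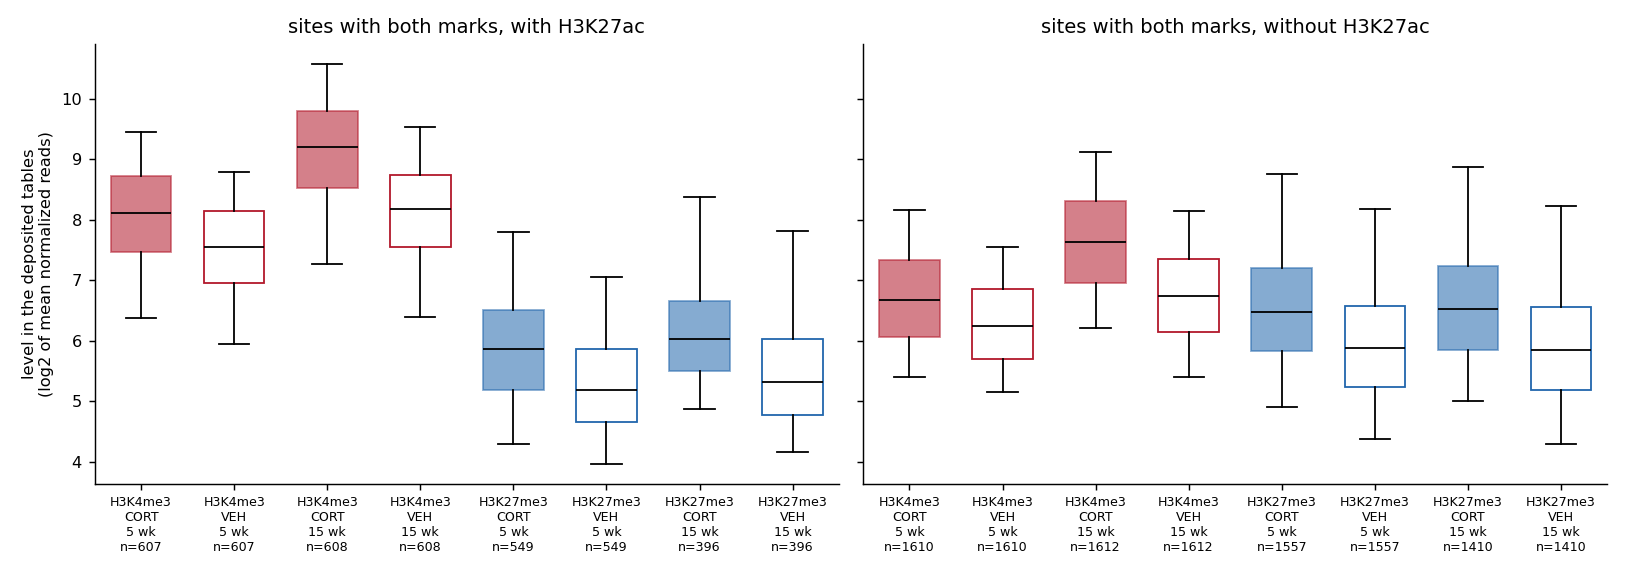
Log2 mean normalized reads in CORT (filled) and VEH (open) for each site with a region in the authors' deposited tables, by mark and time, apart for sites with and without H3K27ac; boxes show quartiles with the median and whiskers the 5th to 95th percentile. H3K4me3 at 15 weeks had a median of 9.20 in CORT and 8.18 in VEH over the 608 sites with H3K27ac, and 7.63 in CORT and 6.75 in VEH over 1612 sites without it.

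**Figure D4:**
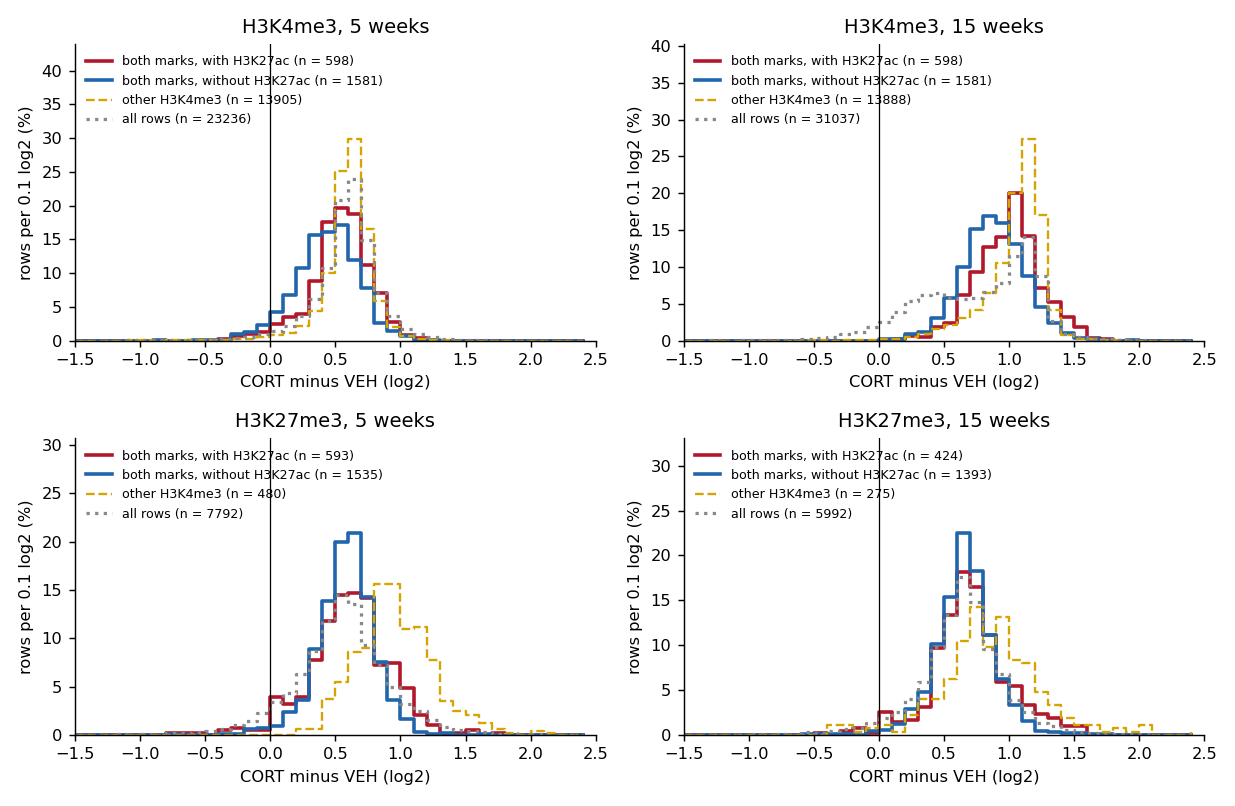
Distribution of the CORT minus VEH log2 difference of the authors' deposited tables, in percent of regions per 0.1 log2, for sites with and without H3K27ac, other H3K4me3 peaks and all regions, for both marks and both times; values beyond the axis are counted in the last bin. At 15 weeks the medians were 0.90 at the sites and 0.85 over all regions for H3K4me3, and 0.67 and 0.65 for H3K27me3.

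Sites that kept H3K27me3 in more libraries had a smaller H3K4me3 difference at 15 weeks. The median difference in the authors' deposited table was 1.04 for sites with H3K27me3 in at most 1 of the 6 other libraries, 0.95 for 2 or 3, 0.88 for 4 or 5 and 0.87 for all 6. The calls in the authors' deposited table were 156 of 205 (76.1%), 500 of 654 (76.5%), 605 of 911 (66.4%) and 302 of 450 (67.1%). The share of sites without H3K27ac moved with these classes, at 51.5%, 60.0%, 79.7% and 86.5%, and its part in the result was not tested. The median H3K4me3 score was 353, 428, 342 and 268.

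The differences of the 2 marks at a site were only loosely related. Over the 1803 sites with a region in both tables at 15 weeks, the authors' deposited tables called both marks higher in CORT at 364 (20.2%), H3K4me3 alone at 867, H3K27me3 alone at 192 and neither at 380. The Pearson correlation of the differences in the authors' deposited tables was −0.14 over these sites, −0.33 over the 396 with H3K27ac and −0.09 over the 1407 without it, given as a description across sites measured in the same libraries. Between the times, the differences in the authors' deposited tables correlated at 0.57 for H3K4me3 (2214 sites) and 0.32 for H3K27me3 (1791 sites). Of the sites called at 5 weeks, the authors' deposited tables called 95.4% at 15 weeks for H3K4me3 and 53.2% for H3K27me3. Of the regions on all the sites, 70.0% and 28.6% were called at 15 weeks. These shares are a description, since the VEH libraries at 5 weeks chose the sites.

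Against input, regions on the sites passed the FDR threshold for H3K27me3 more often than all regions, in the CORT groups as well. In VEH at 5 weeks 9665 such regions stand against 9663 merged H3K27me3 domains. The regions thus appear to come from the peak lists, so enrichment over input was largely set in advance. Sites without an H3K27me3 peak in a group can be missing from these values. In the authors' deposited table of CORT at 15 weeks, the median log2 enrichment was 2.10 on the sites and 1.89 over all regions. On the sites 74.7% of regions passed the FDR threshold, where 44.6% of all regions and 37.6% away from the shared H3K4me3 peaks did. The authors' deposited table of VEH at 15 weeks had a median of 1.99 on the sites and 1.84 over all regions. Past the threshold were 53.7% on the sites, 31.7% of all regions and 26.0% away from the shared H3K4me3 peaks. At 5 weeks the authors' deposited tables gave 2.19 on the sites and 1.90 over all regions in CORT. Past the threshold in CORT were 81.1% on the sites, 42.6% of all regions and 33.2% away from the shared H3K4me3 peaks. For VEH at 5 weeks the medians were 2.16 on the sites and 1.98 over all regions, with 80.5%, 57.2% and 49.7% past the threshold. The VEH values are a description, since those libraries chose the sites.

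H3K27ac at 15 weeks was called higher in CORT at a smaller share of the sites than of its whole table. The authors' deposited table at 15 weeks called 45 of 410 regions on the sites (11%) higher, where 15.5% of all 28322 regions were. It called none of the regions on the sites lower, and none had an unadjusted p below 0.05 in that direction. Of all regions in the authors' deposited table, none was called lower either, and 5 had an unadjusted p below 0.05 in that direction. At 5 weeks the authors' deposited table called 119 of 594 regions on the sites (20.0%) higher in CORT, where 17.2% of all 39581 regions were, and 3 lower, where 0.134% of all regions were. The values at 5 weeks are a description, since H3K27ac of VEH divided the sites. The median difference at 15 weeks was 0.53 on the sites and 0.71 over all regions of the authors' deposited table. The name of that table points to CORT replicate 2 alone, and the H3K27ac list of CORT replicate 1 at 15 weeks held only 1810 peaks, against 20644 to 52108 in the other 15-week lists.

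The 608 sites with H3K27ac differed in whether other libraries also listed it. Neither CORT library at 5 weeks had an H3K27ac peak at 114 of them, neither CORT library at 15 weeks at 253, and neither VEH library at 15 weeks at 22. At 7 of the 608 (1.15%) all 4 VEH libraries had an H3K27ac peak and no CORT library had one, as at 21 of the 12764 other shared H3K4me3 peaks with H3K27ac (0.165%). The short list of CORT replicate 1 at 15 weeks leaves 3 CORT libraries to carry this pattern.

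One of these 7, chr4:122672429-122674979, was the site with the smallest p among the 3 called lower for H3K27ac at 5 weeks. Its H3K27ac peaks had scores of 795 and 913 in VEH at 5 weeks and 603 and 705 in VEH at 15 weeks, with no peak in any CORT library. The H3K27ac level in the authors' deposited table at 5 weeks was 6.08 in CORT and 7.15 in VEH, a difference of −1.07 (FDR 0.00978). At 15 weeks the authors' deposited table gave 5.96 in CORT and 7.29 in VEH, a difference of −1.33 that was not called (FDR 0.419). H3K27me3 at the same site was 6.34 in CORT and 5.35 in VEH at 5 weeks (difference 1.0, FDR 0.00992) and 6.11 in CORT and 5.23 in VEH at 15 weeks (difference 0.88, FDR 0.0615) in the authors' deposited tables. H3K4me3 at 5 weeks was 8.62 in both groups in the authors' deposited table. At 15 weeks H3K4me3 was 9.75 in CORT and 9.07 in VEH and was called higher in the authors' deposited table (difference 0.69, FDR 0.000175). The values at 5 weeks are a description, since the VEH libraries at 5 weeks chose the site.

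At 4 of the 7 sites the authors' deposited table called H3K27me3 higher in CORT at 15 weeks, where it called 28.6% of the regions on all sites and 15.9% of all regions. They were chr1:136130610-136132196 (difference 1.07, FDR 0.0488), chr16:97984191-97985889 (0.89, 0.0423), chr19:4476334-4477717 (1.22, 0.0365) and chr5:30890149-30891861 (1.08, 0.0249). The 7 sites were picked after their values were seen, and their count is given as a description.

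Sites named for the smallest p of the H3K27me3 difference included narrow H3K4me3 peaks under long H3K27me3 domains. The largest differences at 15 weeks in the authors' deposited table were 1.57 among sites with H3K27ac and 1.73 among sites without it. The site chr2:74529279-74530267, 989 bp wide inside the largest cluster, lay under an H3K27me3 domain of 7704 bp and had no H3K27ac peak in any library. Its H3K27me3 scores were 1750 and 384 in CORT and 663 and 672 in VEH at 5 weeks. At 15 weeks they were 967 and 1180 in CORT and 59.9 and 730 in VEH. The score of 59.9 came from VEH replicate 1, whose list of 2255 peaks was the shortest of this mark. In the authors' deposited table at 15 weeks its H3K27me3 level was 9.23 in CORT and 8.40 in VEH (difference 0.83, FDR 0.00289), and its H3K4me3 level was 7.00 in CORT and 6.54 in VEH (difference 0.46, FDR 0.326). Within this cluster the authors' deposited table called H3K27me3 higher in CORT at 6 of the 9 sites with a region at 15 weeks (differences 0.28 to 1.03), and H3K4me3 at 3 of 10 (0.46 to 0.89). Neighbouring sites can share 1 merged region of a table, so these are not independent values.

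A further pair of sites lay close together on chromosome 6. The site chr6:52174800-52176661 had H3K27me3 levels of 10.68 in CORT and 9.94 in VEH at 15 weeks (difference 0.74, FDR 0.00466) and H3K4me3 levels of 7.86 in CORT and 7.07 in VEH (difference 0.78, FDR 0.0156) in the authors' deposited tables. Its only H3K27ac peak, with a score of 66.6, was in VEH replicate 1 at 5 weeks, so it counts among the sites with H3K27ac through 1 weak peak. The site chr6:52209893-52210929 lay under the longest H3K27me3 domain among the sites named, 9315 bp, with an H3K27me3 difference of 0.58 at 15 weeks (FDR 0.0212) in the authors' deposited table.

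Both marks were called together at other sites. The site chr19:47088996-47090211, without H3K27ac, had an H3K27me3 level of 7.68 in CORT and 6.63 in VEH at 15 weeks (difference 1.05, FDR 0.0035) in the authors' deposited table. Its H3K4me3 level in the authors' deposited table was 7.67 in CORT and 6.60 in VEH (difference 1.07, FDR 0.00248). The site chr15:102806819-102808558, at the start of the chromosome 15 cluster, had H3K27me3 levels of 9.0 in CORT and 8.14 in VEH (difference 0.85, FDR 0.00423) and an H3K4me3 difference of 1.0 (FDR 0.00958) in the authors' deposited tables. The site chr12:8304775-8305856 had H3K27me3 levels of 8.46 in CORT and 7.51 in VEH (difference 0.95, FDR 0.00289), while its H3K4me3 difference of 0.67 was not called (FDR 0.179) in the authors' deposited tables.

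The H3K4me3 differences with the smallest FDR at 15 weeks lay at broad sites with H3K27ac, and at both sites given here H3K27me3 was not called. The largest differences in the authors' deposited table were 1.73 among sites with H3K27ac and 1.92 among sites without it. The site chr17:44870834-44874059 had H3K4me3 levels of 10.53 in CORT and 9.02 in VEH (difference 1.51, FDR 6.26e-17) and an H3K27me3 difference of 0.54 (FDR 1) in the authors' deposited tables. The site chr2:160189529-160194589, 5061 bp wide, had H3K4me3 levels of 11.10 in CORT and 9.70 in VEH (difference 1.4, FDR 6.76e-17), with H3K27ac at 9.34 in CORT and 7.89 in VEH (difference 1.45, FDR 0.000293) and H3K27me3 at 6.99 in CORT and 6.60 in VEH (difference 0.40, FDR 0.209) in the authors' deposited tables. H3K27me3 covered 17.3% of that peak and was listed in all 8 libraries.

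Single sites showed how far the rule reaches. The site chr6:113024996-113029573, 4578 bp wide, had the same score of 3100 for both methylation marks in all 8 libraries of each, and H3K27ac peaks in all 8. Outside CORT at 5 weeks replicate 1, 3100 was the highest score of any H3K27me3 list. It recurs at many strong H3K4me3 peaks, so equal scores need not mean equal signal. The H3K27me3 levels of this site, 11.37 in CORT and 10.67 in VEH at 15 weeks in the authors' deposited table (difference 0.71, FDR 0.394), stood far above the median of the sites. The site chr11:62061663-62063736 was under H3K27me3 over only 4.48% of its length, in 2 of 8 libraries, and had an H3K4me3 difference of 1.44 at 15 weeks (FDR 6.83e-14) in the authors' deposited table. The widest site, chr1:82279059-82289789, spanned 10731 bp with 8.50% under H3K27me3, and its H3K4me3 difference at 15 weeks was 0.77 (FDR 0.0478) in the authors' deposited table. The widest site without H3K27ac, chr12:12944911-12949969, spanned 5059 bp, with differences of 0.82 for H3K4me3 (FDR 1.79e-06) and 0.69 for H3K27me3 (FDR 0.0612) at 15 weeks in the authors' deposited tables.

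The RNA of subunits and enzymes that write, bind or remove both marks was mostly lower in CORT at 5 weeks. Some of these genes, such as the PRC1 subunit Cbx7, do not code for enzymes. RNA was tested in all 20 libraries with limma on log2(FPKM + 1), with Benjamini-Hochberg adjustment over 15601 genes. Of 55 tested genes on lists of Polycomb subunits, H3K27 demethylases and H3K4 methyltransferases and demethylases, 32 were lower and 3 higher in CORT at 5 weeks, where 21.5% of all genes were lower and 22.3% higher. At 15 weeks 9 were lower, where 6.80% of all genes were, and none was higher, where 3.83% of all genes were. For the count of none, 0 of the 55 also had a positive difference at an unadjusted p below 0.05, and limma voom on recovered reads called 0 higher. The median log2 difference of the 55 was −0.32 at 5 weeks and −0.08 at 15 weeks, against 0.01 and 0.00 over all genes. The CORT effect was less negative or more positive at 15 weeks than at 5 weeks in 13 of the 55 (limma interaction contrast, adjusted p below 0.05), where 6.57% of all genes had a positive and 10.1% a negative difference of effects.

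Cbx7, a PRC1 subunit that binds H3K27me3, had 3.76, 4.07 and 6.10 FPKM (lowest, median and highest) in CORT at 5 weeks and 10.5, 12.1 and 14.6 FPKM in VEH at 5 weeks, so the groups did not overlap (log2 difference −1.25, SE 0.12, limma adjusted p = 5.15e-07). At 15 weeks it had 11.2, 12 and 12.9 FPKM in CORT and 12, 13.1 and 17.3 FPKM in VEH, groups that overlapped (−0.20, adjusted p = 0.321). Suz12, a core subunit of PRC2, had 12.1, 12.4 and 12.8 FPKM in CORT and 18.3, 21.8 and 24.1 FPKM in VEH at 5 weeks (−0.70, SE 0.10, adjusted p = 3.2e-05). At 15 weeks Suz12 had 12.2, 17.0 and 20.5 FPKM in CORT and 21.6, 25.3 and 26.3 FPKM in VEH, again without overlap (−0.52, SE 0.10, adjusted p = 0.00563).

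Kdm6a and Kdm5a, which code for enzymes that remove the marks, were lower at both times. Uty, on the H3K27 demethylase list (−0.26, limma adjusted p = 0.116), was not called at 5 weeks. The same held for Kdm1a, on the H3K4 list (−0.12, adjusted p = 0.185). Kdm6a, an H3K27 demethylase, had 7.76, 8.30 and 8.77 FPKM in CORT and 11.3, 12.2 and 13.4 FPKM in VEH at 5 weeks (−0.51, adjusted p = 0.000301), and 7.52, 11 and 11.7 FPKM in CORT and 12.2, 13.4 and 15 FPKM in VEH at 15 weeks (−0.39, adjusted p = 0.0161). Kdm5a, an H3K4 demethylase, had 12.4, 13.1 and 13.6 FPKM in CORT and 16.4, 17.8 and 20.1 FPKM in VEH at 5 weeks (−0.43, adjusted p = 0.000338), and 11.9, 15.4 and 17.0 FPKM in CORT and 17.3, 20.0 and 21.4 FPKM in VEH at 15 weeks (−0.38, adjusted p = 0.00796). Kmt2c, an H3K4 methyltransferase, had 12, 13 and 14.4 FPKM in CORT and 16.9, 21.1 and 22.5 FPKM in VEH at 5 weeks (−0.58, adjusted p = 3.56e-05). At 15 weeks Kmt2c was not called (−0.14, adjusted p = 0.342). Jarid2, a PRC2 subunit, had 5.37, 5.56 and 6.02 FPKM in CORT and 7.44, 9.23 and 10.6 FPKM in VEH at 5 weeks (−0.63, adjusted p = 2.05e-05). Jarid2 was not called at 15 weeks either (−0.06, adjusted p = 0.745). In these 4 genes the groups did not overlap at 5 weeks, as in 21 of the 55 genes. The 4 were named for small adjusted p, and the share over all genes is not given here.

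**Figure D5:**
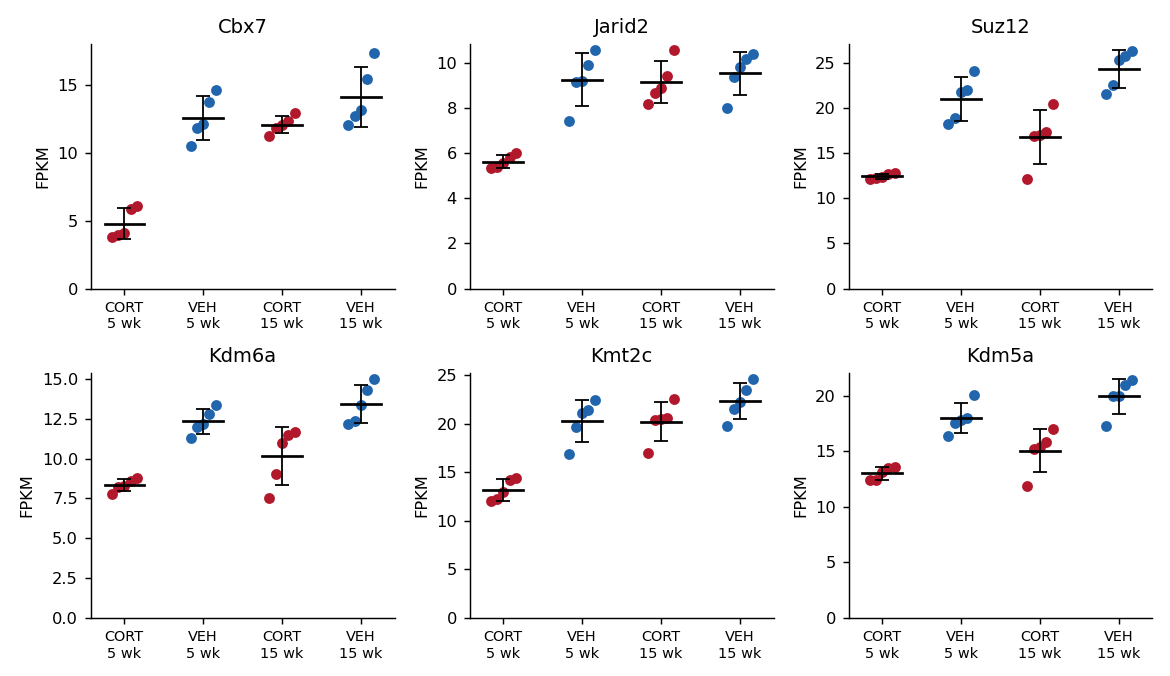
FPKM of Cbx7, Jarid2, Suz12, Kdm6a, Kmt2c and Kdm5a in each RNA library (points) with the mean and SD of each group (lines and bars, 5 libraries), CORT left of VEH at each time. Cbx7 stood between 3.76 and 6.10 FPKM in the CORT libraries at 5 weeks and between 10.5 and 14.6 FPKM in the VEH libraries.

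Leaving out libraries with transcripts of other tissues lowered the number of calls at both times. Summed FPKM of epididymis and testis markers reached 589 to 4340 in 6 RNA libraries (CORT at 5 weeks replicates 3 and 4, VEH at 5 weeks replicate 3, CORT at 15 weeks replicates 1 and 5, and VEH at 15 weeks replicate 5) and at most 13.6 in the others, and liver markers reached 3270 in CORT at 5 weeks replicate 2 and at most 74.0 elsewhere. Without these 7 libraries 18 of the 55 genes were called lower and 0 higher at 5 weeks, and 0 lower at 15 weeks. This alternative was chosen after seeing the data. It leaves 13 libraries, with only replicates 1 and 5 for CORT at 5 weeks. The share called over all genes in that setting is not given here, so a general loss of calls cannot be told apart. The endothelial markers were lower as well at 5 weeks, with 9 of 10 called and a sum of 99.9 to 143 FPKM in CORT and 208 to 338 FPKM in VEH. The T and NK cell markers were lower too, with 8 of 9 tested genes called and a sum of 2.15 to 3.29 FPKM in CORT and 7.52 to 9.99 FPKM in VEH at 5 weeks. B and plasma cell markers summed to 150 FPKM in CORT at 15 weeks replicate 4 and to at most 44.5 FPKM elsewhere. The macrophage markers summed to 900 to 2450 FPKM in CORT and 496 to 943 FPKM in VEH at 5 weeks, while the adipocyte markers summed to 21900 to 29300 FPKM in CORT and 21100 to 36800 FPKM in VEH. The part of these shifts in the values of the 55 genes was not tested.

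Developmental regulators, the class of genes best known for bivalent promoters, were mostly at low RNA levels. No gene of these lists is tied to a site here. Of 312 developmental genes listed, 189 averaged under 0.5 FPKM and 131 passed the filter on low values and were tested. At 5 weeks 58 of the 131 were lower and 6 higher in CORT, where 21.5% and 22.3% of all genes were. At 15 weeks 3 were lower and 5 higher, where 6.80% and 3.83% of all genes were, so the counts at 15 weeks were at or below the share over all genes. Among the 23 Hox genes tested, which set position along the body axis, 11 were lower and 0 higher at 5 weeks, and 1 was lower and 1 higher at 15 weeks. Sox17, a transcription factor known from endothelium and endoderm, had 0.489, 0.568 and 0.984 FPKM in CORT and 1.98, 3.58 and 4.57 FPKM in VEH at 5 weeks (−1.42, limma adjusted p = 1.11e-05). Nog, the secreted BMP inhibitor noggin, had 0.558, 0.899 and 0.918 FPKM in CORT and 3.69, 4.17 and 5.98 FPKM in VEH at 5 weeks (−1.62, adjusted p = 2.78e-06). Egr2, an immediate early zinc finger factor, was the other way round, with 2.20, 4.37 and 7.46 FPKM in CORT and 0.355, 0.497 and 1.20 FPKM in VEH at 5 weeks (1.67, adjusted p = 1.58e-05). In these 3 genes the groups did not overlap, as in 20 of the 24 genes named here, which were mostly picked for small adjusted p. The endothelial markers given above moved with Sox17.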

How the data were processed

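Peak lists (24, with the score of the authors' peak caller), differential peak tables (6) and tables against input (11) were used as deposited. In those tables levels and differences are log2 values, and the p-value and FDR columns are the authors'. Per the submitters' processing notes the tools were TopHat, Bowtie, DESeq2 and DiffBind and the builds mm9 and dm3. A Drosophila spike-in was added to the ChIP samples, per the labels. Whether it scaled the values, the caller's settings and the depth of the ChIP libraries are not given in the sources used here. Overlaps of 1 bp or more were found with interval code in Python 3.11.15, checked against bedtools 2.31.1 on drawn intervals. RNA was tested with limma 3.58.1 (trend, two-sided, 4 group means) in R 4.3.3 on log2(FPKM + 1) of the FPKM values deposited by the authors, for genes with at least 0.5 FPKM in at least 5 libraries. This log2 scale understates the change of low genes. Dividing FPKM by their smallest step gave whole reads for 382398 of 382438 values (tolerance 0.05 reads), with totals of at least 23.3 to 39.9 M reads per library (median 27.9 M). These reads served limma voom as an alternative. The code was tested on simulated data.

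The sites and gene lists were chosen with earlier results of these data known. Sites were named for the largest widths and scores and for the smallest p among called regions, genes for the smallest adjusted p in each list (at most 2 for each developmental list), with a few others named by choice after their values were seen. RNA of genes at the sites and promoter sequences were planned but not run, since no annotation of mm9 was used here, and the deposited gene result tables were not used. Alternatives were other overlaps, score minimums, base lists and FDR thresholds, another pseudocount, no filter, quantile normalization, a replicate block, and leaving out libraries. Those on the counts of Polycomb, H3K27 demethylase and H3K4 genes were added after seeing the data.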

Additional observations from a re-analysis of the deposited data

Results flagged for a closer look

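The 24 named genes were each checked in the 4 groups of 5 RNA libraries, and in 3 cases a single library stood apart from the rest. Chance sets apart about 1 in 20 such groups, and 3 cases are fewer than that. Phc2, a PRC1 subunit, had 9.78 FPKM in VEH at 5 weeks replicate 1, with the nearest library at 11.3 FPKM. Nog had 0.558 FPKM in CORT at 5 weeks replicate 4, with the nearest library at 0.876 FPKM, and 5.45 FPKM in VEH at 15 weeks replicate 5, with the nearest at 4.32 FPKM.

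The CORT effect on 11 of the 24 named genes differed between the times, tested as the 15-week minus the 5-week effect in the limma model with adjustment over all genes, where 6.57% of all genes had a positive and 10.1% a negative difference. Genes were named for the smallest adjusted p at single times, so this count is a description. Among the Polycomb and H3K4 genes the difference of effects was 1.05 for Cbx7 (adjusted p = 0.000903), 0.57 for Jarid2 (0.00575), 0.51 for Phc2 (0.00755) and 0.45 for Kmt2c (0.0198). Among the developmental genes it was 1.35 for Sox17 (0.00286), 1.26 for Nog (0.00458), 0.70 for Foxc1 (0.00391), 0.54 for Hoxa7 (0.00852), 0.72 for Msc (0.0167), 0.68 for Hoxc4 (0.022) and −1.25 for Egr2 (0.0143).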

How the results depend on the processing

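The number of sites was 1324 with peaks of a score of at least 100 and 1473 with H3K27me3 in both VEH lists at 5 weeks, and 1650 to 2419 when 1 library of the rule was left out. Sites with H3K27ac numbered 255 when each overlap had to cover at least 50% of the H3K4me3 peak, 231 with the higher score, 272 with both lists, and 357 to 620 with 1 library left out (357 without H3K27me3 VEH at 5 weeks replicate 1). Sites without H3K27ac numbered 1293 to 1799. With H3K27me3 in both lists, the authors' deposited tables called H3K4me3 higher at 444 of 1443 regions (30.8%) at 5 weeks. At 15 weeks it was 977 of 1441 (67.8%). Of all H3K4me3 regions, 51.9% and 47.1% were called. For H3K27ac the calls were 57 of 268 (21.3%) and 19 of 185 (10.3%), where 17.2% and 15.5% of all regions were called. At an FDR below 0.01 the called regions on the sites were 390 for H3K4me3 at 5 weeks, 342 and 72 for H3K27me3 at 5 and 15 weeks, and 33 and 23 for H3K27ac. The share of all regions at that threshold is not given here, so these counts are not set against the whole tables. The smaller counts follow from fewer sites or the stricter threshold.

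Of the 55 Polycomb, H3K27 demethylase and H3K4 genes, 27 to 33 were lower and 3 to 5 higher at 5 weeks, and 5 to 11 lower and 0 higher at 15 weeks, with 1 RNA library left out. The highest and lowest counts came from CORT at 5 weeks replicate 1 (5 higher) and CORT at 15 weeks replicate 1 (5 lower). Without the 7 libraries with transcripts of other tissues they were 0 higher and 18 lower at 5 weeks and 0 lower at 15 weeks, where Suz12, Kdm6a and Kdm5a were no longer called. That setting leaves 13 libraries, its share of calls over all genes is not given here, and the cause was not tested. The replicate block gave 32 lower at 5 weeks and 9 at 15 weeks, and 6506 and 1326 called genes in all, against 6835 and 1659 without it. Same-numbered samples did not deviate together at either time (correlations of −0.48 to 0.29 at 5 weeks and −0.44 to 0.36 at 15 weeks), so the numbers were not used as pairing. Of 1248 values of the named genes under 26 alternatives, 0 reversed, 20 were no longer past the threshold and 5 newly passed it. ChIP results rest on 2 libraries a group (for H3K27ac at 15 weeks perhaps on 1 CORT library), and low H3K4me3 levels limit the calls there.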
